A study of Mus musculus with 4 samples.

Results

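The genes described here encode the enzymes and particles of the ubiquitin-proteasome system: 109 of the 6404 genes that carried a single gene symbol on the arrays. They were chosen by a rule on symbols. The proteasome subunits and their partners are named Psma to Psmg with a number. The activating enzymes are named Uba, the conjugating enzymes Ube2 and the ligases Ube3 and Ube4. The cullin scaffolds are named Cul, the F-box substrate receptors Fbxo, Fbxw and Fbxl, and the deubiquitinases Usp. Psmb9 and Usp18 were left out by that rule. RefSeq lists 241 mouse protein-coding genes with such names, so the measured genes are a subset of the families. The rule uses no expression value, but it was set with earlier results of these data known. The values of Psmb9 and Usp18 are given below with the interferon-inducible members. In 2 cases the name says little of the function: Psmc3ip encodes a meiotic recombination factor and Usp6nl a GTPase-activating protein for Rab proteins.

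The cells were EML, a mouse lymphohematopoietic progenitor line that is grown with stem cell factor (SCF), which binds and activates KIT, a receptor tyrosine kinase. They had been transduced with a retrovirus carrying 1 of 2 activated KIT receptors. The 4 Affymetrix M430 2.0 arrays held 1 sample each. The groups were cells with Del417-419insY, a change in the extracellular domain, without SCF; cells with D816V, a change in the kinase domain, without SCF; and the same 2 lines after 48 h with SCF at 250 ng/mL. The time in culture of the samples without SCF is not stated. Both lines had passed geneticin selection, growth in factor-free medium until they grew autonomously, and a sort for KIT, so each mutant is 1 selected population and no array held cells without mutant KIT.

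Ubiquitin is activated by an E1 enzyme, passed to an E2 enzyme and attached to a substrate by an E3 ligase. In the cullin-RING ligases a cullin scaffold holds the E2 at one end and a substrate receptor, such as an F-box protein, at the other, and the small ubiquitin-like protein NEDD8 switches the scaffold on. Substrates are degraded by the proteasome, a 20S core with a 19S regulatory particle at its ends. Interferon exchanges the active core subunits for those of the immunoproteasome, and deubiquitinases take ubiquitin off again. Activated KIT is itself ubiquitinated and degraded.

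The values are differences from an unstated zero, taken here as log2, so levels are not compared between genes and whether a gene is expressed cannot be read from them. Over all probe sets the array medians ran from -0.20 to -0.02 and the SDs from 0.59 to 0.79, with the wider spread on both D816V arrays. With 1 array per group there were no replicates. The limma fit (genotype plus SCF, over all genes) took its error from the difference between the 2 lines' SCF responses, with 1 residual degree of freedom per gene. It drew that error toward a common value over all genes (SD 0.13, 4.1 prior degrees of freedom), which outweighs the gene's own. An SE given below is thus not an error of that gene alone. Neither the spread of repeat arrays nor that of repeat populations enters the p-values of the fit. Fewer cells of a type and less RNA per cell cannot be told apart in such samples. Among fixed marker lists, 7 of 8 measured mast cell genes rose and none fell in D816V cells against Del417-419insY cells. Of the progenitor genes 2 of 7 rose and 5 fell, and 10 of 11 interferon response genes rose and 1 fell. Over all genes 17.9% rose and 24.7% fell.

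Most of the 109 genes differed little between the mutants. By limma at an adjusted p under 0.05, 37 genes passed (33.9%), against 42.6% of all genes. Of these, 15 were higher in D816V cells (13.8%, against 17.9% of all genes) and 22 were lower (20.2%, against 24.7%). The share that passed was therefore below that of all genes in both directions, and the median size of the difference was 0.26 against 0.36 on the log2 scale. The mean difference lay within 0.5 of 0 for 83 of the 109, and the matching count over all genes is not given here. The median difference over the members was -0.01 without SCF and -0.05 with SCF, beside -0.08 and -0.14 over all genes. Cyclic loess rescales the arrays to each other along the mean value of each probe set. As the zero of the values is unstated, that mean is not a level, so calls lost or gained after loess are a limited check. After it the members' medians were 0.10 and 0.11, beside 0.03 and 0.04 over all genes. The balance of directions depended on the scaling. Loess raised the median of all genes by 0.10 and 0.18 in the 2 comparisons. Then 23 members were higher (21.1%, against 25.4% of all genes) and 15 lower (13.8%, against 19.7%). Quantile normalization gave 21 higher and 20 lower of the 109, against 1526 and 1387 of the 6404 genes. Median centring gave 25 and 16, against 1720 and 1302. Under all 4 scalings 14 members were higher and 12 lower, and the matching count over all genes is not given here.

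By size alone, 6 members were at least 1.5-fold higher in D816V cells both without and with SCF (5.5%, against 9.6% of all genes) and 7 were at least 1.5-fold lower in both (6.42%, against 10.9%). These 2 comparisons share no array. The sign was the same in both for 92 of the 109 members, which is 84.4% beside 84.8% of all genes.

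**Figure D1:**
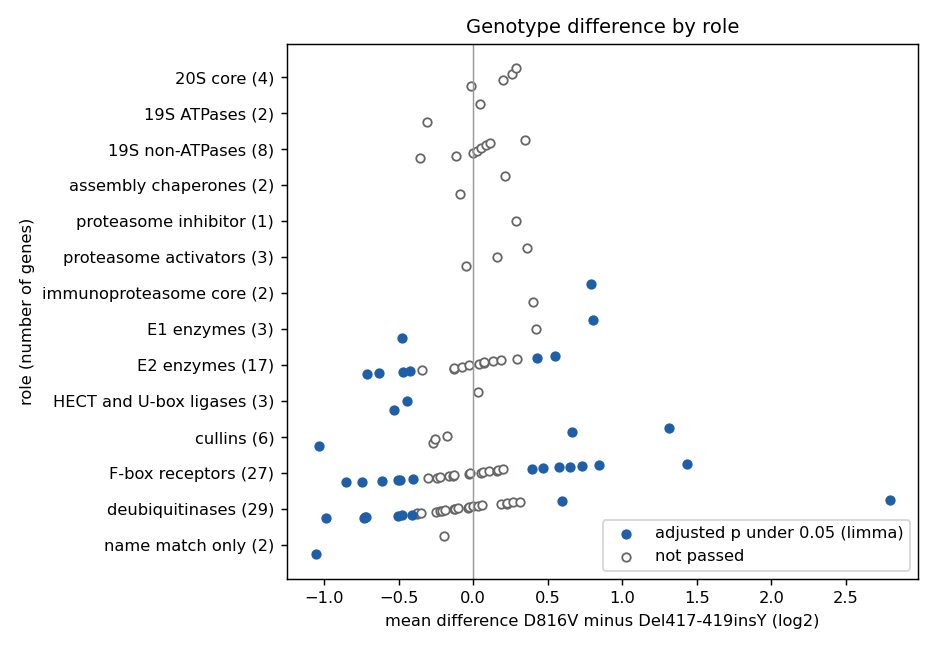
Mean of both differences between D816V and Del417-419insY cells (log2, x axis) for each of the 109 genes, by role (y axis, with the number of genes). Filled points had a limma adjusted p under 0.05. The 14 genes of the 20S core and the 19S particle are all open, between -0.36 and 0.35. Cullins, F-box receptors, E1 enzymes, E2 enzymes and deubiquitinases have filled points on both sides.

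The constitutive proteasome differed little between the mutants. Of the genes for it 14 were measured: 4 of the 20S core, 2 ATPases and 8 others of the 19S particle. The last include Psmd9, which acts in its assembly. None of the 14 passed, and 2 had an unadjusted p under 0.05 in the limma fit. The mean differences of the 14 had an SD of 0.20, beside 0.52 over all 109 members and 0.84 over all genes. The values of Psmb2, a non-catalytic subunit of the inner core rings, differed by 0.17 without SCF and 0.22 with SCF. Psmd8, a lid subunit of the 19S particle, was highest at 0.35 (adjusted p = 0.060), and Psmd1, the scaffold that receives ubiquitin-binding subunits, was lowest at -0.36 (adjusted p = 0.064). Under the other scalings 1 to 3 of the 14 were higher and none was lower: Psmd8 in each, Psmb2 after loess, and Psma3 and Psma5, both of the outer core rings, after median centring.

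None of the members that are partners of the particle, named Psme, Psmf or Psmg, passed on the deposited values either. The assembly chaperones Psmg3 and Psmg4 stood at 0.21 and -0.09, and Psmg3 passed after loess (adjusted p = 0.036). The inhibitor Psmf1 (PI31) stood at 0.29 and passed after each of the other 3 scalings. Among the activators, Psme3, the nuclear form, stood at -0.05 and Psme4, which caps the core in sperm and at DNA breaks, at 0.16. Psme1, an interferon-inducible activator subunit, stood at 0.36 (adjusted p = 0.063).

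Of the immunoproteasome core subunits that the choice by symbol took in, 1 of 2 rose. Psmb10, which takes the place of the trypsin-like subunit, read -0.64 and -0.67 in Del417-419insY cells without and with SCF, and 0.18 and 0.09 in D816V cells. Both D816V values were above both Del417-419insY values, and the mean difference was 0.79 ± 0.11 (SE), a 1.73-fold rise (adjusted p = 0.0070). Psmb8, which takes the place of the chymotrypsin-like subunit, read -0.60 and -0.56 in Del417-419insY cells, against -0.05 and -0.31 in D816V cells. Its groups did not overlap either, but the mean difference of 0.40 did not pass (adjusted p = 0.061).

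On the fixed list of interferon-inducible members 4 of 6 genes were measured. Of these 2 rose (Psmb10 and Uba7) and none fell, beside 17.9% and 24.7% of all genes. After loess, quantile normalization or median centring Psmb8 and Psme1 rose as well. Uba7, the activating enzyme of the ubiquitin-like protein ISG15, read 0.01 and 0.07 in Del417-419insY cells, against 0.78 and 0.91 in D816V cells. The rise of 0.81 ± 0.12 (SE; adjusted p = 0.0067) was seen in all 3 of its probe sets, from 0.54 to 0.95. Psmb9 and Usp18, the interferon-inducible genes of these families outside the rule, rose by 1.72 and 4.03. The measured interferon response markers, which include both, had median differences of 3.82 without SCF and 3.42 with SCF, and 2.37 and 2.28 after loess. The part of this response in the values of the 4 members was not tested.

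On the deposited values the largest difference of any member was that of Usp17la, also known as Dub1, a deubiquitinase first described as an immediate early gene of cytokine-stimulated hematopoietic cells. It read -0.06 and 0.45 in Del417-419insY cells without and with SCF, and 2.93 and 3.04 in D816V cells. Both D816V readings lay far above the others, a rise of 2.79 ± 0.15 (SE), or 6.93-fold (adjusted p = 3.4e-04). After loess it was 1.71, below that of Cul7 at 1.88. The gene has 1 probe set here and near-identical copies beside it on chromosome 7, so the reading may sum several of them.

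The stretches of 250 bases before the start sites of Usp17la and of the immunoproteasome and ISG15 genes are shown because Usp17la is known as a cytokine-induced gene and the others as interferon-induced genes. The sequences are from RefSeq on mouse build GRCm38.p6, written 5' to 3' on the gene's strand. The windows are chr7:104856766-104857015 (plus strand) for Usp17la, chr9:107975317-107975566 (plus) for Uba7, chr17:34197945-34198194 (plus) for Psmb8 and chr8:105938393-105938642 (minus) for Psmb10. Capitals mark matches to 3 letter patterns searched on both strands: TTCNNNGAA, the palindrome of STAT sites; the core of the interferon-stimulated response element (GAAA, any 2 bases, then GAAA again); and AANNGAAA, the shorter core of interferon regulatory factors, which every match to the longer core contains.
Usp17la: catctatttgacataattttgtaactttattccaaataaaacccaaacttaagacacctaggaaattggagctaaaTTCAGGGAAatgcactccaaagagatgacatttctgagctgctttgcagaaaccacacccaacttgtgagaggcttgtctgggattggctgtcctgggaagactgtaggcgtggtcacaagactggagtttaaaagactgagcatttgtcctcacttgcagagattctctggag
Uba7: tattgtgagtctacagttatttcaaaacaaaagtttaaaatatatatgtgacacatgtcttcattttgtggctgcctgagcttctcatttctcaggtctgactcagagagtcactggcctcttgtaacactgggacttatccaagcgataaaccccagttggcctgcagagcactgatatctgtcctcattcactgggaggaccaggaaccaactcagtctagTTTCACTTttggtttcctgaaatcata
Psmb8: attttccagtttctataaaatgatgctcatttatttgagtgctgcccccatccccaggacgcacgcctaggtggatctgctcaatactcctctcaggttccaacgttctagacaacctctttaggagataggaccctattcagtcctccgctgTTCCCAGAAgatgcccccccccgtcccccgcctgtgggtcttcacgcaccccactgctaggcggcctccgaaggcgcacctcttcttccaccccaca
Psmb10: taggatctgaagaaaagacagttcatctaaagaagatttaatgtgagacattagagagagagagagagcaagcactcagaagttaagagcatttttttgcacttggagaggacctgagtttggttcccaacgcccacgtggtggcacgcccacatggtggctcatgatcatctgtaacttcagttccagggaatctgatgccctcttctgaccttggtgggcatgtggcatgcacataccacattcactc

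Usp17la held a TTCNNNGAA match whose first base is at position -174 from the start site, and Psmb8 one at -97. Uba7 held an AANNGAAA match on the opposite strand at -27. No match to the 3 patterns lay in the Psmb10 window. A window was found by symbol for 89 of the 109 members, and the other 20 were not searched. TTCNNNGAA was present for 4 of the 89 (4.49%), beside 8.13% of all 27025 genes with a window. The longer interferon core was present for 6 (6.74%, beside 3.46%): Fbxl15, Fbxo36, Fbxo7, Psmd4, Psmd9 and Usp49. These are not on the fixed list of interferon-inducible members. AANNGAAA was present for 18 (20.2%, beside 23.9%). These shares are descriptions of letters, not of bound sites.

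Of the activating enzymes, Uba7 is described above. Uba3, the catalytic subunit of the NEDD8-activating enzyme, read 0.46 and 0.22 in Del417-419insY cells, against 0.06 and -0.33 in D816V cells, and fell by 0.47 (adjusted p = 0.031). Uba6, the second activating enzyme for ubiquitin, stood at 0.42 and did not pass on the deposited values (adjusted p = 0.053). It passed after loess, quantile normalization and median centring.

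Of the 17 conjugating enzymes 2 rose and 4 fell, beside 17.9% and 24.7% of all genes. Ube2h, which works with an erythroid ligase complex, rose by 0.55 (adjusted p = 0.028), and Ube2a, a RAD6 homologue that ubiquitinates histone H2B and PCNA, by 0.43 (adjusted p = 0.037). Ube2w, which attaches ubiquitin to the amino terminus of substrates, read 0.39 and -0.19 in Del417-419insY cells, against -0.20 and -1.03 in D816V cells without and with SCF. It was lower in D816V cells within each SCF condition, by a mean of -0.71 (adjusted p = 0.012). Ube2g1 fell by 0.63, Ube2r2, a CDC34 homologue that extends chains on cullin ligases, by 0.47, and Ube2f, the NEDD8-conjugating enzyme that serves cullin 5, by 0.43. The Ube2f difference did not pass after loess (-0.27), quantile normalization or median centring, and that of Ube2r2 not after median centring (adjusted p = 0.051). The other 11 enzymes stood between -0.34 (Ube2n, which makes lysine-63 chains) and 0.29 (Ube2j2, of the endoplasmic reticulum). They did not pass on the deposited values, but Ube2j2 passed after loess, quantile normalization and median centring.

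Of the 3 ligases named Ube3 or Ube4, 2 fell, beside 24.7% of all genes. Ube4b, a U-box chain-extending enzyme, fell by 0.53 (adjusted p = 0.021) and the HECT ligase Ube3b by 0.44 (adjusted p = 0.035), the second not after loess, quantile normalization or centring. Ube3a, the ligase lost in Angelman syndrome, differed by 0.02 without SCF and 0.05 with SCF.

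The cullins moved in both directions. Cul7, a scaffold that pairs with the F-box protein Fbxw8 and is mutated in the growth disorder 3M syndrome, read -1.43 and -2.13 in Del417-419insY cells without and with SCF, and -0.64 and -0.31 in D816V cells. The D816V values were the higher ones in each condition, a rise of 1.31 ± 0.25 (SE; adjusted p = 0.015), and the gap with SCF (1.82) was wider than the gap without it (0.80). Cul5, which builds ligases with SOCS-box receptors, read 0.13 and -0.45 in Del417-419insY cells, against 1.10 and -0.10 in D816V cells. It rose by 0.66 ± 0.18 (SE; adjusted p = 0.036), although the D816V value with SCF was below the Del417-419insY value without it. Cul3, which uses BTB-domain receptors such as KEAP1, read 0.34 and 0.25 in Del417-419insY cells, against -0.60 and -0.88 in D816V cells. Its fall of 1.03 on the log2 scale, 2.05-fold (SE 0.12, adjusted p = 0.0038), was present in all 5 probe sets, from -1.33 to -0.59. Cul2, Cul4a and Cul4b stood between -0.27 and -0.17 and did not pass.

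**Figure D2:**
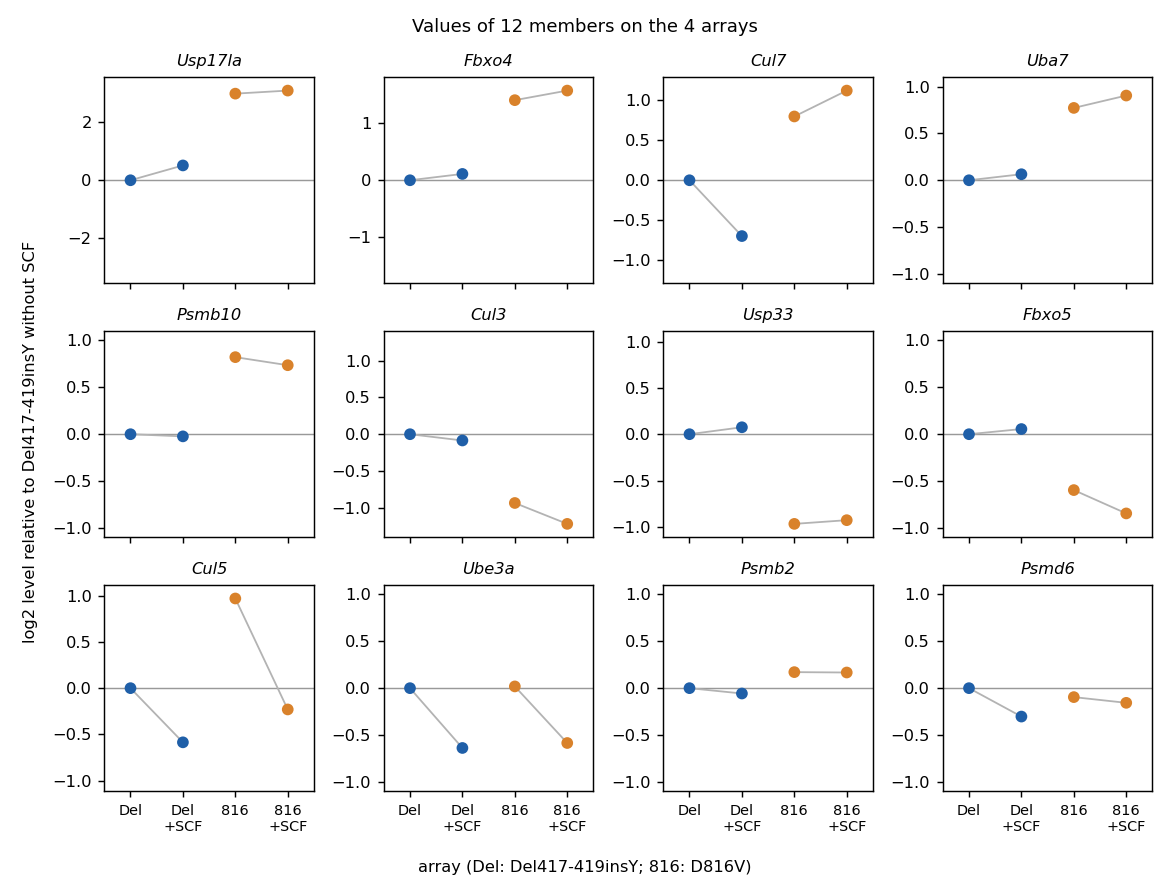
Level of 12 genes on each of the 4 arrays (log2, y axis, relative to Del417-419insY cells without SCF; the range differs between panels), with Del417-419insY arrays in blue, D816V arrays in orange and a grey line from the array without SCF to that with it. Usp17la, Fbxo4, Uba7 and Psmb10 are higher on both orange points, Cul3, Usp33 and Fbxo5 lower, and Cul5 and Ube3a drop along both grey lines.

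Of the 27 F-box receptors 7 rose and 6 fell, beside 17.9% and 24.7% of all genes. Fbxo4, a receptor for cyclin D1, had the second largest rise of all members on the deposited values. It read -1.16 and -1.05 in Del417-419insY cells, against 0.25 and 0.41 in D816V cells, so the SCF conditions differed far less than the mutants. The rise was 1.43 ± 0.11 (SE), or 2.70-fold (adjusted p = 0.0012), and 1.67 after loess, where Cul7 and Usp17la were both above it. Fbxw17 read -0.11 and 0.24 against 0.62 and 1.20, a rise of 0.84 (adjusted p = 0.0073). Fbxl5, the iron-sensing receptor for the iron regulatory protein IRP2, rose by 0.65, Fbxo7, which binds the proteasome inhibitor Psmf1, by 0.58, Fbxo6, a receptor for glycoproteins, by 0.47, and Fbxo8 by 0.39. Fbxo7 read 0.96 after loess. Fbxw4 rose by 0.73 (adjusted p = 0.018) on the deposited values, but after loess it was at -0.37 and did not pass (adjusted p = 0.079), nor did it pass after quantile normalization.

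Among the receptors that fell, Fbxo5 (EMI1), the inhibitor of the anaphase-promoting complex, read 0.65 and 0.70 in Del417-419insY cells, against 0.05 and -0.20 in D816V cells. The groups did not overlap, and it fell by 0.75 (SE 0.13, adjusted p = 0.012). Fbxw11, the β-TrCP2 receptor for phosphorylated β-catenin and IκB, read -0.28 and -0.51 against -0.63 and -1.86, and fell by 0.85 (SE 0.25, adjusted p = 0.046). The D816V array with SCF stood apart from the other 3, and after loess the difference was -0.37 and did not pass (adjusted p = 0.11). Fbxo45 fell by 0.61, Fbxo42, a receptor for p53, by 0.50, Fbxo36 by 0.49 and Fbxo11, a receptor for BCL6, by 0.40. After loess Fbxo45 and Fbxo42 did not pass, and after median centring Fbxo11 did not (adjusted p = 0.099). Fbxo33 stood at -0.16 and did not pass on the deposited values. It passed as lower after loess and after quantile normalization (adjusted p = 0.026 and 0.047).

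**Figure D3:**
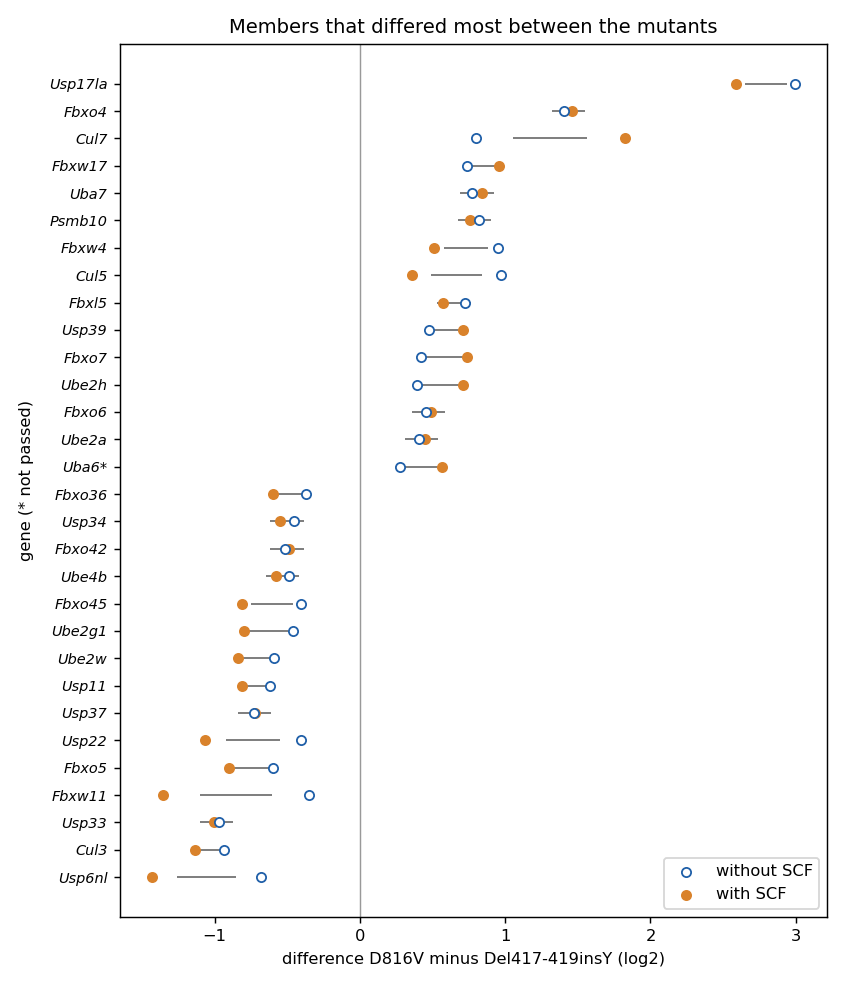
Difference between D816V and Del417-419insY cells (log2, x axis) without SCF (open) and with SCF (filled) for the 15 highest and 15 lowest members by their mean. Grey bars are the mean ± SE of the limma fit; Usp17la stands apart at 3.00 and 2.59, Uba6 did not pass, and the open and filled points lie far apart for Cul7 and Fbxw11.

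Of the 29 deubiquitinases 2 rose and 7 fell, beside 17.9% and 24.7% of all genes. Besides Usp17la, Usp39, a splicing factor that has lost deubiquitinase activity, rose by 0.59 (adjusted p = 0.019). Usp33, which acts on the von Hippel-Lindau and β-adrenergic receptor pathways, read 0.65 and 0.73 in Del417-419insY cells, against -0.31 and -0.27 in D816V cells. The lines were separated by -0.97 and -1.0 with hardly any change with SCF, a fall of 0.99 (SE 0.11, adjusted p = 0.0036). Usp37, which protects cyclin A, fell by 0.72, Usp11, a partner of BRCA2, by 0.72 and Usp34, which stabilises axin, by 0.50. Usp22, the deubiquitinase of the SAGA coactivator, fell by 0.73 (adjusted p = 0.031) but stood at -0.25 after loess and did not pass. Usp47 and Usp49 fell by 0.48 and 0.41, and neither passed after loess (-0.36 and -0.23) or median centring, nor Usp49 after quantile normalization. The other 20 did not pass on the deposited values. Among them were Usp7, which stabilises MDM2, at -0.03, Usp14, which edits chains at the proteasome, at 0.19, and Usp9x at -0.21. Usp36 passed as higher after loess, quantile normalization and median centring, and Usp20 after median centring (adjusted p = 0.042).

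Of the genes named by the rule but outside the system, Usp6nl read 0.13 and 0.68 in Del417-419insY cells, against -0.55 and -0.76 in D816V cells. It fell by 1.06 (SE 0.20, adjusted p = 0.015), the largest fall of any member on the deposited values. After loess it stood at -0.90 and Usp33 at -0.98, and Usp33 was also lower after quantile normalization.

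Fbxo5 and Usp37 were the 2 measured genes of 5 on the fixed list of cell cycle members, and both fell, also after each of the other 3 scalings. Of the cell cycle markers, 9 of 16 were measured, and 4 fell and none rose, beside 24.7% and 17.9% of all genes. The median differences of the markers were -0.33 without SCF and -0.36 with SCF. After loess 2 of the 9 fell, beside 19.7% of all genes. The part of these markers in the values of Fbxo5 and Usp37 was not tested.

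Genes with several probe sets give a second view of the error, although probe sets on an array share its RNA. Of the 109 members 39 had 2 to 5 probe sets, whose genotype differences spanned 0.23 at the median and 0.78 at most (Ube2v2). All probe sets of a gene had 1 sign in 15 of the 15 such members that passed and in 12 of the 24 that did not. The calls were made on the mean of the same probe sets, so this contrast is no separate check of them. The SE of the limma fit ran from 0.11 to 0.25 over the members.

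SCF for 48 h changed no member past the limma threshold: 0 of 109 passed, as did 0% of all genes, and the smallest adjusted p of a member was 0.14. At an unadjusted p under 0.05, 7 members were higher with SCF (6.42%, against 7.87% of all genes) and 12 lower (11%, against 10.6%). The median size of the SCF difference was 0.14 over the members and 0.16 over all genes. Its sign was the same in both lines for 78 of the 109, or 71.6%, beside 65.5% of all genes. No member was at least 1.5-fold higher with SCF in both lines (0.328% of all genes were) and 2 were at least 1.5-fold lower (1.83%, against 1.55%). After median centring 4 members passed, Ube2w, Ube3a and Cul5 lower and Fbxl15 higher. The matching count over all genes is not given here, so these 4 are not read as particular to the members. At an unadjusted p under 0.05 in that limma fit, 9 of the 109 were higher and 8 lower, beside 929 and 563 of 6404 genes.

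The 2 members past 1.5-fold were Cul5 and Ube3a. For Cul5, whose readings are given above, the SCF differences were -0.59 in Del417-419insY cells, against -1.20 in D816V cells, a mean of -0.89 (unadjusted p = 0.0038 in the limma fit). Ube3a read 0.30 and 0.32 without SCF in the 2 lines and -0.34 and -0.28 with SCF. Its SCF differences of -0.64 and -0.60 were nearly alike, but its 3 probe sets ran from -1.19 to -0.07. Just outside the 1.5-fold bound in 1 of the lines stood Ube2w (-0.58 and -0.83) and in both Usp37 (-0.58 and -0.57). Psmc6, a 19S ATPase, stood at -0.40 and -0.66, Usp36, a nucleolar deubiquitinase, at -0.27 and -0.69, and Fbxo30 at -0.23 and -0.62. On the higher side, Fbxl15, a receptor for the ligase SMURF1, read -0.20 and 0.08 without SCF and 0.37 and 0.50 with it, differences of 0.57 and 0.42. Fbxw17 stood at 0.36 and 0.58, Usp54 at 0.47 and 0.30 and Ube2h at 0.20 and 0.52.

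**Figure D4:**
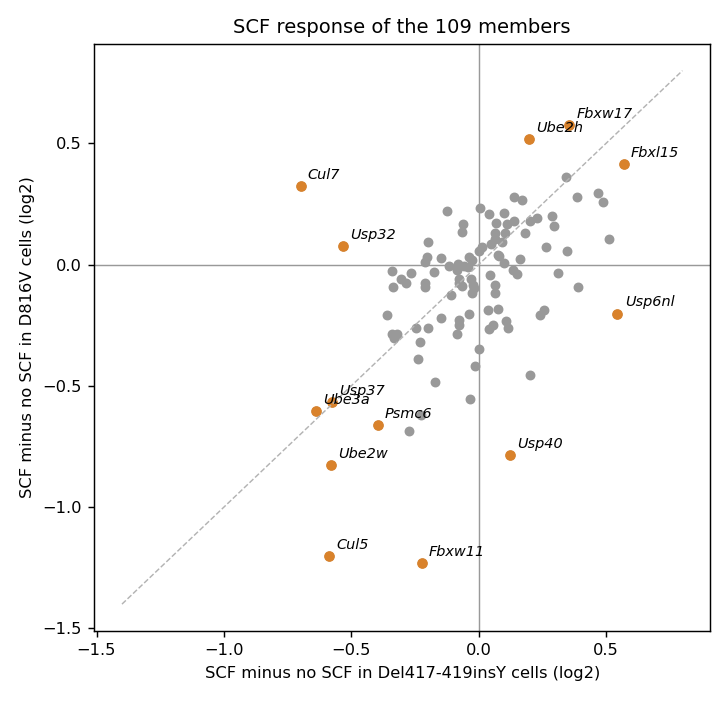
SCF response of each of the 109 genes in Del417-419insY cells (x axis) and D816V cells (y axis), as the log2 difference between the arrays with and without SCF; the dashed line marks equal responses and the orange points are named. Cul5 (-0.59, -1.20) and Ube3a (-0.64, -0.60) lie low in both lines, and Cul7 and Fbxw11 lie farthest from the dashed line.

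On the deposited values the responses of the 2 lines differed most for Cul7, by 1.02 (D816V minus Del417-419insY; -0.70 in Del417-419insY cells, against 0.32 in D816V cells). The next on that side were Usp32 at 0.61, Psme4 at 0.35, Ube2h at 0.32 and Fbxo7 at 0.32. On the other side Fbxw11 stood at -1.01 (-0.22 and -1.23), Usp40 at -0.91, Usp6nl at -0.75, Usp22 at -0.66 and Cul5 at -0.62. With 1 array per group these differences have no test.

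The other genes of the pathway were read from a fixed list of 130, of which 74 were measured. In D816V cells 8 rose and 20 fell (17.9% and 24.7% of all genes), and 13 and 11 after loess (25.4% and 19.7%). The parts that work with the cullins and F-box proteins had 14 genes measured, of which none rose and 8 fell on the deposited values (17.9% and 24.7% of all genes), among them Eloc (elongin C, the adaptor of Cul2 and Cul5 ligases), which fell by 1.09, and Btrc, the paralogue of Fbxw11, which fell by 0.63. After loess, quantile normalization or median centring 4 of the 14 fell and none rose, beside 19.7% of all genes that fell after loess. Of the other ligases 5 of 22 rose and 5 fell, with Smurf1, a HECT ligase of the TGF-β pathway, up by 1.03 and Trip12, a HECT ligase, down at -0.84. Ecpas, which tethers the 19S particle to the core, fell by 0.71.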

How the data were processed

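Each array gives 1 sample. The deposited values were made by the authors with RMA, per the submitters' processing notes (no version given), and are taken as log2 values; the zero they refer to, and the rule that kept 10861 of the probe sets, are not stated. Of these, 9633 carry 1 gene symbol in the platform annotation, 264 several and 964 none. Probe sets of a gene were averaged, giving 6404 genes. The genes and lists were chosen with earlier results of these data known. The limma fit (limma 3.58.1, R 4.3.3; lmFit and eBayes, genotype plus SCF, two-sided) covered all genes with Benjamini-Hochberg adjustment at 0.05, and was tested on simulated data. It has 1 residual degree of freedom per gene, beside 4.1 prior degrees of freedom shared by all genes. Cyclic loess, quantile normalization and median centring were applied to all probe sets. Members were named as the 15 highest and 15 lowest by the mean genotype difference, the 8 highest and 8 lowest by the mean SCF difference (1 sign in both comparisons), the 5 largest and 5 smallest differences between SCF responses, the median member of each role and fixed interferon and cell cycle lists, and of the other pathway genes the 3 highest and 3 lowest; other members are named as parts of a group whose counts are given. Fixed marker lists for erythroid, lymphoid and stromal cells had 5, 2 and 3 genes measured. Of these 1, 1 and 0 were higher and 4, 1 and 2 lower in D816V cells, beside 17.9% and 24.7% of all genes. The alternatives are given at the end. Proteins were not used here.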

Additional observations from a re-analysis of the deposited data

Results flagged for a closer look

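The SCF difference had the same sign in the 2 lines for 71.6% of the members, beside 65.5% of all genes. Opposite signs, found for 31 of the 109 members, were thus not more common than over all genes. Those given here are the 6 that were also among the largest differences between the lines; each line had 1 array per condition, and the difference between the lines was not tested. It is given as the D816V response minus the Del417-419insY response on the log2 scale. Cul7, a cullin scaffold, stood at 1.02, with -0.70 in Del417-419insY cells, against 0.32 in D816V cells. Usp32, a deubiquitinase, stood at 0.61, with -0.53 and 0.08. Psme4, a proteasome activator, stood at 0.345, with -0.12 and 0.22. Usp40, a deubiquitinase, stood at -0.91, with 0.12 and -0.79. Usp6nl, the Rab GTPase-activating protein, stood at -0.75, with 0.55 and -0.20. Usp22, the SAGA deubiquitinase, stood at -0.66, with 0.20 and -0.46.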

How the results depend on the processing

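No paired analysis was possible because each group held 1 array and the labels give no replicate numbers. Against 15 members higher and 22 lower in D816V cells, 23 were higher after cyclic loess and 25 after median centring, and a fit without the SCF term gave 9 higher and 7 lower. With SCF, median centring gave 1 member higher and 3 lower, and the highest-mean probe set of each gene 1 lower (Usp37), against 0 and 0. The matching counts over all genes are not given for these SCF counts. Nor are they given for the fit without the SCF term, or for the other size bounds and scalings below. None of these counts is read as particular to the members. By size in both genotype comparisons, 2 members were higher and 0 lower at 2-fold and 16 and 22 at a lower bound of 0.32 on the log2 scale, against 6 and 7 at 1.5-fold; loess left 4 lower and median centring 3. By size in both SCF comparisons, 3 were higher and 5 lower at that bound and 0 lower at 2-fold, after loess or after median centring, against 0 higher and 2 lower. The median genotype difference with SCF moved from -0.05 to 0.11 after loess and after median centring. Fbxw4 changed sign, to -0.37, after loess. The cause of these changes was not tested. Of 36 named calls, 30 were kept after loess, 34 after quantile normalization and 35 after centring, 34 with the highest-mean probe set (not Ube2a and Usp37), 34 without probe sets ending in _s_at or _x_at (not Fbxw11 and Ube2h), 22 without the SCF term and all 36 with either other eBayes prior; 30 of the 30 still measured were kept without the lowest 25% of probe sets. The number of arrays, 4, limits the precision: no spread between cultures could be measured.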

Other observations

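Of the 4 measured genes for ubiquitin and related proteins in the fixed pathway list, none passed on the deposited values and 2 were higher in D816V cells after loess, quantile normalization or median centring. The anaphase-promoting complex, the mitotic ligase that Fbxo5 inhibits, had 6 of 14 listed genes measured. Of these Anapc11, its RING subunit, rose by 0.54, and Cdc26, Anapc5 and Anapc1 fell by 0.57, 0.54 and 0.53. After loess 1 of the 6 rose and 2 fell. Of 14 other deubiquitinases measured none rose and 1 fell, and of 9 shuttle and segregase genes, which carry ubiquitinated proteins to the proteasome, none rose and 2 fell on the deposited values. After loess the first had 1 higher and 1 lower, and the second 2 higher and 1 lower. After quantile normalization or median centring both had 1 higher and 1 lower. Over all genes 17.9% were higher and 24.7% lower on the deposited values, and 25.4% and 19.7% after loess. Quantile normalization gave 1526 and 1387 of the 6404 genes, and median centring 1720 and 1302. The lists are too short to set their counts apart from these shares.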
